A study of Mus musculus with 7 samples.

Results

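The genes described here are 30 neuronal and synaptic transcripts, measured in RNA from microglia-enriched preparations of the dorsal hippocampus. They were chosen by symbol, and all 30 were found among the 55401 gene identifiers of the count table. They comprise 7 structural genes of neurons, 6 presynaptic genes, 12 genes of excitatory neurons and synapses, 3 of inhibitory neurons and 2 that mark dentate granule cells. Of the 30, 28 passed the filter on low counts that 19199 genes passed. The 2 that did not were Gad2 and Slc32a1.

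The libraries came from C57BL/6 mice aged 6 to 8 weeks, described as adult males. The dorsal dentate gyrus of all of them was injected with AAV-RAM-Cre. RAM is a synthetic promoter that responds to neuronal activity, so Cre is made in neurons recruited by an experience (engram neurons), and these neurons then express a Cre-dependent (Dio) cargo. The cargo was AAV-Dio-EYFP, a fluorescent protein, in 4 libraries (EYFP 1 to 4), and AAV-Dio-Atg7-Flag, a tagged autophagy gene, in 3 libraries (ATG7 1 to 3). Tissue was dissociated with enzymes and enriched with beads against CD11b, a surface protein of microglia and other myeloid cells. The labels do not say how many mice went into a library or whether libraries came from separate mice, and p-values measure the spread between these libraries, which may be technical.

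Neurons carry signals through action potentials and pass them on at synapses. On the presynaptic side, vesicles filled with transmitter by vesicular transporters fuse through SNARE proteins when synaptotagmin senses calcium. On the postsynaptic side of excitatory synapses, AMPA and NMDA glutamate receptors are held in a dense scaffold together with the kinase CaMKII, and some of these mRNAs are carried into dendrites and translated there. Inhibitory neurons make GABA with glutamate decarboxylases. Microglia are not known for such a programme. Where the transcripts in these libraries came from was not tested.

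The labelled cell type was borne out by its defining markers. The 10 microglial markers summed to between 22465 and 27470 CPM (counts scaled to the library total) in the 7 libraries, and Csf1r, the receptor for the microglial survival factor CSF1, stood at 6383 CPM on average in EYFP and 6789 CPM in ATG7. The 30 neuronal members together summed to between 179.2 and 380.7 CPM in EYFP and between 180.1 and 212.4 CPM in ATG7. The 10 choroid plexus markers summed to more, 55541 to 73238 CPM in EYFP and 47062 to 61966 CPM in ATG7. Total counts ran from 35934210 in EYFP 1 to 55217119 in ATG7 2. EYFP 3 stood apart from the male label, with 938.5 CPM of Xist, the RNA of the inactive X chromosome.

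Most of the members were highest in EYFP 1. This library held the highest level of 22 of the 28 members that passed the filter, or 78.6%, where 13.6% of all genes tested were highest in it. The share was smaller among other neuronal genes, where 25 of the 62 that passed the filter were highest in it. EYFP 1 reached at least 2 times the median of the other 6 libraries in 16 of the 28 members (57.1%), against 2.79% of all genes tested. Among these 16 are Grin1, Grin2b and Slc17a6, which passed the filter only with EYFP 1 included. Grin1, Grin2b and Nefl, also among the 16, did not pass it without EYFP 2. The median ratio of EYFP 1 to the other libraries was 2.30 over these members and 1.00 over all genes tested. In 9 further lists of neuronal genes, untested genes included, it ran from 1.04 to 2.05. Without scaling, the members had 13935 counts in EYFP 1, the shallowest library, and between 7858 and 11672 in the other 6. In bulk RNA, more neuronal cells or fragments, more RNA per cell and transcripts from other cells cannot be told apart.

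**Figure D1:**
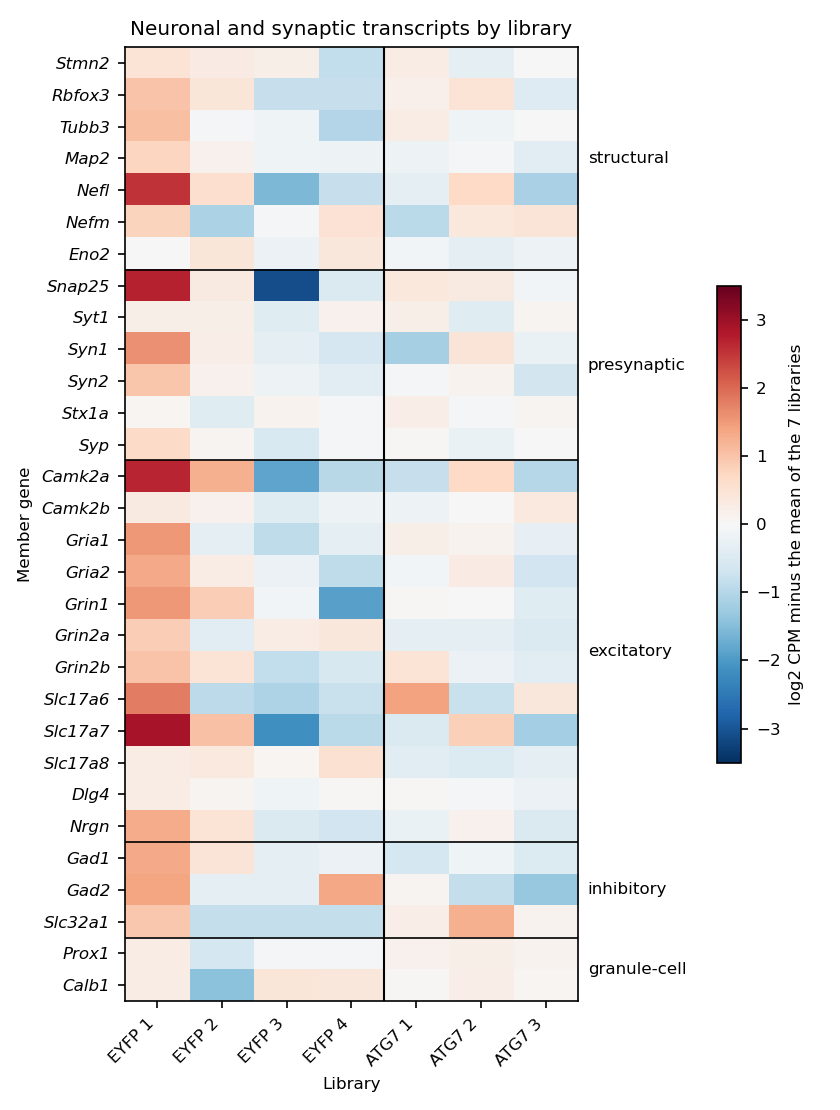
Each cell shows the log2 CPM of a member gene (rows, by role) in a library (columns) minus that gene's mean over the 7 libraries, with red above and blue below the mean. The column of EYFP 1 is red in most rows, while Eno2, Syt1, Stx1a, Slc17a8, Dlg4, Prox1 and Calb1 stay pale there.

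The excess in EYFP 1 was uneven. It was largest in Slc17a7, at 12.8 times the median of the other libraries, in Camk2a at 11.8 times and in Nefl at 10.1 times. By contrast, 9 members lay under 1.5 times: Stmn2, Eno2, Syt1, Stx1a, Camk2b, Slc17a8, Dlg4, Prox1 and Calb1. Of the 6 members with a mean of at least 10 CPM (Map2, Eno2, Camk2a, Slc17a8, Dlg4 and Prox1), Camk2a alone was above 2 times. All 11 members with a mean under 1 CPM were at 1.61 times or more.

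Per length, the order of the members was not that of CPM. Divided by the exonic length of each gene, the mean over the libraries was highest in Eno2 at 5.02 CPM per kb, followed by Dlg4 at 4.30, Slc17a8 at 4.29 and Camk2a at 4.06. These 4 lie close together, and in Camk2a the libraries themselves spanned 4.83 to 110.7 CPM, so its place in the order depends on the library. Nrgn (2.59), Prox1 (2.43), Stx1a (2.24) and Map2 (1.98) came next on this scale. The NMDA receptor subunits were the lowest of the tested members, at 0.0289 CPM per kb for Grin1, 0.0193 for Grin2a and 0.0106 for Grin2b.

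Among the structural genes, Map2, the microtubule-binding protein of dendrites, stood at 52.9, 35.2, 28.3 and 28.2 CPM in EYFP 1 to 4 and at 27.9, 30.9 and 24.6 CPM in ATG7 1 to 3. EYFP 1 was highest, EYFP 2 next, and the other EYFP libraries fell within the ATG7 range. Nefl, the light neurofilament chain of axons, was at 1.88 CPM in EYFP 1, 0.458 in EYFP 2, 0.0665 in EYFP 3 and 0.147 in EYFP 4, and at 0.225, 0.491 and 0.108 CPM in ATG7 1 to 3. The EYFP 3 value rests on 3 counts.

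Eno2, the neuronal form of the glycolytic enzyme enolase, did not follow this pattern. Its levels were 22.8, 31.3, 20.04 and 30.4 CPM in EYFP 1 to 4 and 21.7, 18.7 and 20.5 CPM in ATG7 1 to 3. EYFP 2 and EYFP 4 were the high libraries here, and the groups overlapped through EYFP 3. The growth-associated Stmn2, a microtubule regulator, ranged from 1.08 to 2.81 CPM with EYFP 4 lowest. Rbfox3 (the nuclear antigen NeuN), Tubb3 (neuronal tubulin) and Nefm (the medium neurofilament chain) stayed under 1 CPM in every library.

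Of the presynaptic genes, Snap25, a SNARE protein of the plasma membrane, varied most. It was at 6.15, 1.16, 0.0665 and 0.638 CPM in EYFP 1 to 4, the third of these from 3 counts, and at 1.20, 1.16 and 0.860 CPM in ATG7 1 to 3. EYFP 1 was far above all the others and EYFP 3 below them. Syn1 and Syn2, the synapsins that tether vesicles, were also highest in EYFP 1 (3.14 and 5.65 CPM), as was the vesicle protein Syp (4.15 CPM). Stx1a, the syntaxin that pairs with SNAP25, showed no such excess, with 6.17, 4.43, 6.45 and 5.72 CPM in EYFP 1 to 4 and 6.95, 5.77 and 6.32 CPM in ATG7 1 to 3. The calcium sensor Syt1 lay between 2.64 and 4.14 CPM, lowest in EYFP 3 and ATG7 2.

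Camk2a, the alpha subunit of CaMKII and one of the mRNAs known from dendrites, varied widely between libraries. Its levels were 110.7 CPM in EYFP 1, 41.3 in EYFP 2, 4.83 in EYFP 3 and 8.79 in EYFP 4, and 9.89, 28.3 and 8.64 CPM in ATG7 1 to 3. EYFP 1, EYFP 2 and ATG7 2 were high and the other 4 libraries low. Camk2a made up 29.1% of all member counts in EYFP 1, 16.6% in EYFP 2, 13.3% in ATG7 2 and between 2.70% and 5.04% in the other 4 libraries. Nrgn, a calmodulin-binding protein of dendritic spines, had the same top 3 libraries at 8.28, 4.67 and 3.71 CPM, and its other values lay between 2.11 and 2.85 CPM. Camk2b, the beta subunit, was even by comparison, from 5.23 CPM in EYFP 3 to 8.84 in ATG7 3.

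The AMPA receptor subunits Gria1 and Gria2 were highest in EYFP 1 as well, at 4.04 and 5.46 CPM. In the other libraries Gria1 lay between 0.732 and 1.60 CPM and Gria2 between 1.15 and 2.66 CPM. The NMDA receptor subunits Grin1, Grin2a and Grin2b were under 1 CPM everywhere, each with its highest value in EYFP 1 (0.710, 0.628 and 0.519 CPM). Dlg4, which encodes the scaffold protein PSD-95, was second per length and among the flattest. It stood at 67.4, 60.7, 51.1 and 57.9 CPM in EYFP 1 to 4 and at 58.1, 54.5 and 49.0 CPM in ATG7 1 to 3.

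The 3 vesicular glutamate transporters, which load glutamate into vesicles, behaved unlike one another. Slc17a7 (VGLUT1, ENSMUSG00000070570, chromosome 7, 45163949 to 45176142 in GRCm38), the main form of hippocampal principal neurons, was at 7.16, 1.96, 0.177 and 0.466 CPM in EYFP 1 to 4 and at 0.650, 1.69 and 0.387 CPM in ATG7 1 to 3. It shared its high libraries, EYFP 1, EYFP 2 and ATG7 2, with Camk2a. Slc17a6 (VGLUT2), the form of many subcortical neurons, reached 1.09 CPM in EYFP 1 and 0.824 in ATG7 1 and stayed at or under 0.387 CPM in the other 5. Slc17a8 (VGLUT3, ENSMUSG00000019935, chromosome 10, 89574020 to 89621253), known from serotonergic and some inhibitory neurons, was the highest of the 3 per length (4.29 CPM per kb, against 0.331 and 0.0751), at 23.3, 24.6, 20.4 and 28.4 CPM in EYFP 1 to 4 and 14.9, 14.1 and 15.8 CPM in ATG7 1 to 3. Here EYFP 1 was not the highest library, and every ATG7 library lay below every EYFP library.

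**Figure D2:**
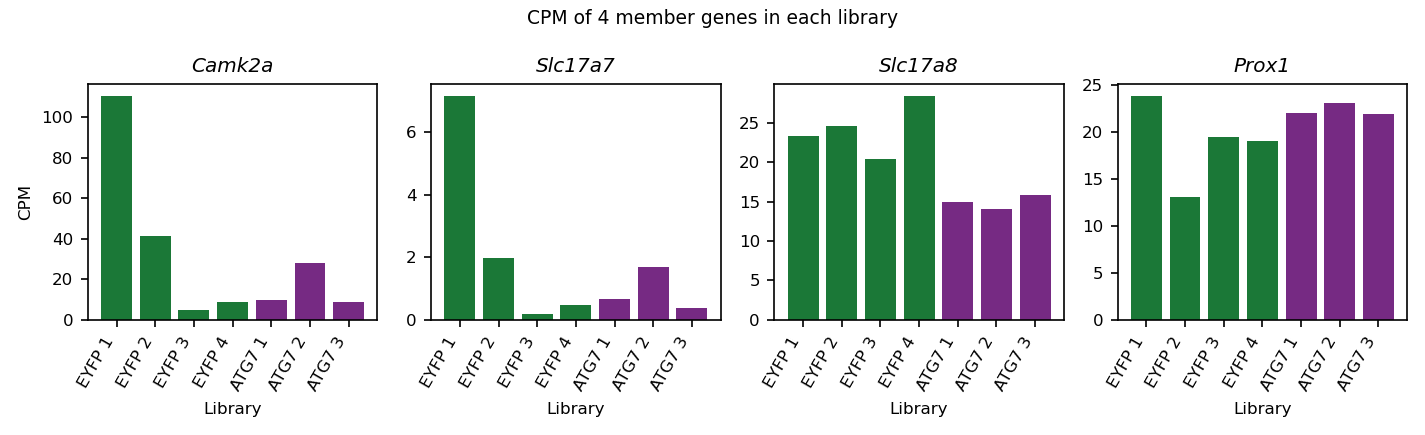
Bars give the CPM of Camk2a, Slc17a7, Slc17a8 and Prox1 in each library, EYFP in green and ATG7 in purple, each panel with its own axis from 0. Camk2a and Slc17a7 peak in EYFP 1, Slc17a8 is lower in all 3 ATG7 libraries, and Prox1 is lowest in EYFP 2.

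Neuronal promoters are partly set apart by the RE1 element, through which the repressor REST keeps many neuronal genes silent in other cells. Promoter windows from RefSeq of 300 bases (250 before to 50 after the start, GRCm38.p6) were found for 21 of the 30 members. A core of this element, 14 bases of which 2 in the middle may be any base and the others are those in capitals in Gad2, was searched on both strands. It was present in the windows of Gria2 and Gad2, and in 17 of all 32851 windows (0.0517%). A cyclic AMP response element, TGACGTCA, was present in the window of Syn1 and in 1.79% of all windows. A match is a run of letters and not a measured site. The windows of Gria2 (chr3:80802786-80803085, minus strand) and Gad2 (chr2:22622077-22622376, plus strand) are shown because they hold the core, in capitals. Those of Slc17a7 (chr7:45163671-45163970, plus strand) and Slc17a8 (chr10:89621200-89621499, minus strand, the nearer of its 2 windows to the annotated start) are shown because these transporters differed in pattern, and neither holds either motif. Each is written 5′ to 3′ on the strand of its gene.
Gria2: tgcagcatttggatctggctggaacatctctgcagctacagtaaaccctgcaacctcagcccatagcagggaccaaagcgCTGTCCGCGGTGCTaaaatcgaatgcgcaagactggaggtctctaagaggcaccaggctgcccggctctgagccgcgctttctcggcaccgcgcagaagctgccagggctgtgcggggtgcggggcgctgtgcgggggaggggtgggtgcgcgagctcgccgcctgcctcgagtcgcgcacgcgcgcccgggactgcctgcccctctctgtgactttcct
Gad2: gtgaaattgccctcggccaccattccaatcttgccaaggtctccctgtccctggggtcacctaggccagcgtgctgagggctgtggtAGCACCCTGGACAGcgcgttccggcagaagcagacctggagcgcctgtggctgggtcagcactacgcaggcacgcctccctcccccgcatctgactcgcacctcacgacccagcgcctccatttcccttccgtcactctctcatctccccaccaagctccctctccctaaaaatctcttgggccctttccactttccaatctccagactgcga
Slc17a7: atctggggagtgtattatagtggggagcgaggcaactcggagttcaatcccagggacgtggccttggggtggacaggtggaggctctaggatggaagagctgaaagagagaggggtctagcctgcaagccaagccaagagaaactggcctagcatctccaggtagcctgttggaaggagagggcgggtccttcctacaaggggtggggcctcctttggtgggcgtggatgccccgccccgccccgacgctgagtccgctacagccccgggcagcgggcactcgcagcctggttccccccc
Slc17a8: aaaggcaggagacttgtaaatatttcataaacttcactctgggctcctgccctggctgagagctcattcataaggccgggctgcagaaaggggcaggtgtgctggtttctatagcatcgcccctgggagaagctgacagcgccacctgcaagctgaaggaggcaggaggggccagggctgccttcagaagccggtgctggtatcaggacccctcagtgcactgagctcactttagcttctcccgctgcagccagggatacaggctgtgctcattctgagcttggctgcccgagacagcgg
In Gria2 the core lies on the opposite strand of the window and begins 170 bases before the start, and in Gad2 it lies on the strand of the gene and begins 163 bases before the start. Gria2 reached 5.46 CPM in EYFP 1, while Gad2 did not pass the filter.

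Inhibitory genes were near the limit of detection. Gad1, a glutamate decarboxylase that makes GABA, was at 0.792 CPM in EYFP 1 and between 0.175 and 0.414 CPM in the other libraries. Gad2, the second decarboxylase, had at most 10 counts in a library and none in ATG7 3. Slc32a1, the vesicular GABA transporter, had none in EYFP 2, 3 and 4 and at most 8 counts elsewhere. At these depths a count of 0 allows up to 3 counts, or 0.0645 CPM in ATG7 3 and 0.0654 to 0.0736 CPM in EYFP 2 to 4, counting error only, so no fold is given for either gene.

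The granule-cell genes followed another order. Prox1, a transcription factor that sets granule-cell identity (ENSMUSG00000010175, chromosome 1, 190118035 to 190170714), was at 23.9, 13.0, 19.4 and 19.1 CPM in EYFP 1 to 4 and at 22.1, 23.1 and 21.98 CPM in ATG7 1 to 3. Calb1, a calcium-binding protein of mature granule cells, was at 5.35, 1.61, 5.96 and 5.89 CPM in EYFP 1 to 4 and at 4.55, 5.28 and 4.71 CPM in ATG7 1 to 3. For both genes EYFP 2 was the lowest library, and EYFP 1 lay at 1.15 (Prox1) and 1.07 (Calb1) times the median of the others.

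By role, the mean log2 CPM of the 12 excitatory genes was 1.24 ± 0.901 (SD, n = 4) over the EYFP libraries and 1.00 ± 0.228 (SD, n = 3) over the ATG7 libraries. The presynaptic mean was 1.27 ± 0.747 (SD, n = 4) and 1.18 ± 0.0829 (SD, n = 3), and the structural mean was 0.86 ± 0.628 (SD, n = 4) and 0.71 ± 0.170 (SD, n = 3). Inhibitory genes averaged -2.64 ± 0.752 (SD, n = 4) and -2.98 ± 0.333 (SD, n = 3), and granule-cell genes 3.14 ± 0.617 (SD, n = 4) and 3.39 ± 0.0753 (SD, n = 3). In each role the difference between the groups was smaller than the SD within EYFP. These means get no test, because the members were chosen with results of these data known.

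**Figure D3:**
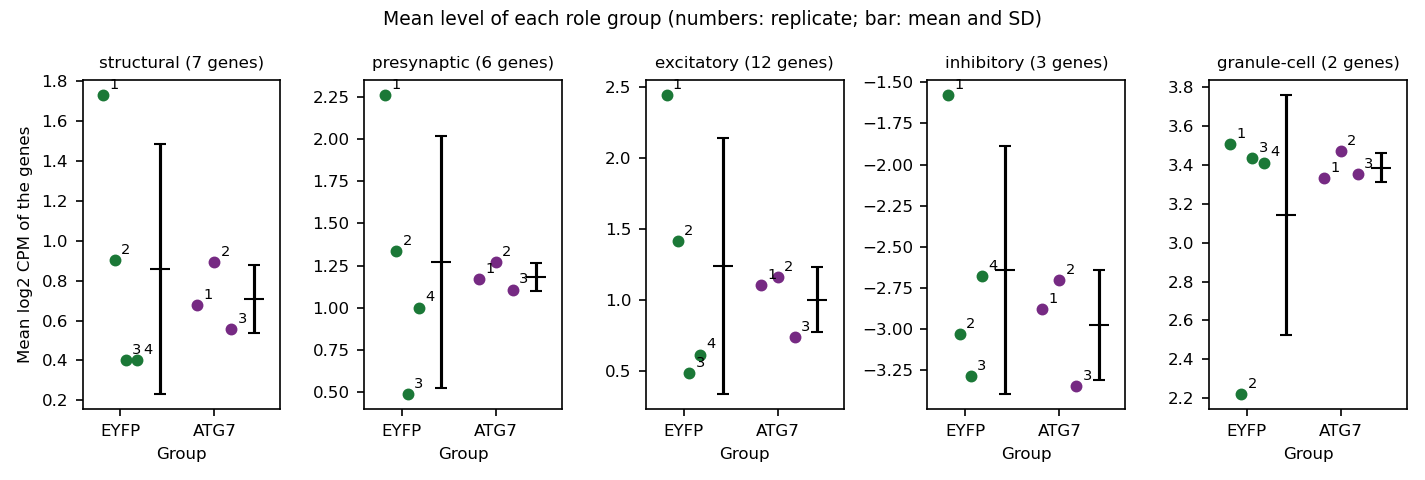
Points are the mean log2 CPM of the genes of a role in each library, numbered by replicate, and the bars beside them give the group mean and SD. EYFP 1 is the highest point in every role, though for granule-cell genes only narrowly (3.51 against 3.47 in ATG7 2), and EYFP 2 is the lowest there.

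EYFP 1 decided the direction of these means. The mean of all 30 members was 0.16 lower in ATG7 with every library included (-0.16 on the log2 scale) and 0.17 higher without EYFP 1. The excitatory difference went from -0.24 to 0.17, the presynaptic from -0.09 to 0.24, the structural from -0.15 to 0.14 and the inhibitory from -0.33 to 0.02. The inhibitory mean includes Gad2 and Slc32a1, each at or under 3 counts in 5 libraries, and Gad1, the member of that role that passed the filter, gave -0.73 as a difference in log2 CPM. The granule-cell difference kept its sign without EYFP 1 (0.24 and 0.36) but was -0.07 without EYFP 2. Without EYFP 3, whose sex-linked RNA does not match its label, the mean of all members was -0.37.

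The comparison of ATG7 with EYFP asked whether these transcripts differ when Atg7 is overexpressed in engram neurons. Slc17a8 was lower in ATG7, and it was the one member of the 28 tested that passed at a Benjamini-Hochberg adjusted p under 0.05 (edgeR quasi-likelihood test, two-sided). Of all genes tested, 0.755% passed in either direction and 0.0677% as lower. No member passed as higher, where 0.688% of all genes did. A single gene of 28 is too few to read against such shares. At an unadjusted p under 0.05 there were 2 members, Slc17a8 and Eno2, both lower, where 5.71% of all genes were lower at that level, and DESeq2 and limma-voom each called Slc17a8 and no other member. Groups did not overlap in 1 of the 28 members, Slc17a8, which was below. Of all genes tested, 11.2% did not overlap in either direction, 4.91% with ATG7 below and 6.33% with ATG7 above.

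Slc17a8 averaged 24.2 ± 3.31 CPM (SD, n = 4) over the EYFP libraries. Over the ATG7 libraries it averaged 14.9 ± 0.877 CPM (SD, n = 3). The log2 fold change was -0.70, its standard error (SE) was 0.113 and the adjusted p by edgeR was 0.0206. The fold change lay between -0.78 and -0.58 in the 16 alternative fits, of which 10 kept the call, with adjusted p from 6.59e-06 to 0.269. Leaving out EYFP 4 gave an edgeR adjusted p of 0.0661, and leaving out ATG7 1, ATG7 2 or ATG7 3 gave 0.0606, 0.104 and 0.101. The call was thus lost without any of these libraries, while the fold change stayed between -0.78 and -0.61 in the leave-one-out fits. Calls over all genes also fell, from 145 to 30 without EYFP 4, 28 without ATG7 2 and 30 without ATG7 3, but were 148 without ATG7 1. All 10 choroid plexus markers had a log2 fold change below 0, with a median of -0.26, though none passed. Of all genes tested, 50.8% were below 0. The mean log2 CPM of these markers overlapped between the groups, with ATG7 1 (9.81) above EYFP 1 (9.66). With that mean as a covariate, chosen after seeing the data, Slc17a8 was at -0.58 (SE 0.123, edgeR adjusted p = 0.137). Calls over all genes then fell from 145 to 14. The part of choroid plexus cells in the Slc17a8 difference was not tested.

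The other 27 tested members did not pass. Eno2 was at -0.36 on the log2 scale (SE 0.150, edgeR adjusted p = 0.362), and it was -0.07 with the choroid plexus covariate. Camk2a (-1.39, SE 1.25) and Slc17a7 (-1.38, SE 1.25) had the largest absolute values and the largest errors, with adjusted p of 0.747 and 0.742. With the choroid plexus covariate they moved further from 0, to -2.13 and -2.22, and without EYFP 1 they stood at -0.23 and 0.08. Snap25 went from -0.88 with an SE of 1.17 to 0.79 without EYFP 1 (SE 0.666, edgeR adjusted p = 0.637). Dlg4 was at -0.14 (SE 0.0968, edgeR adjusted p = 0.642), and between -0.21 and -0.071 when 1 library was left out, the last without EYFP 1. Prox1 was at 0.25 (SE 0.161, edgeR adjusted p = 0.604), at 0.0085 with the choroid plexus covariate, at 0.10 without EYFP 2 and at 0.38 without EYFP 1.

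The median log2 fold change was -0.33 over the members that passed the filter, beside -0.0037 over all genes tested, and 23 of the 28 members (82.1%) were below 0, beside 50.8% of all genes. Without EYFP 1 the median was 0.08 and 10 of the 25 members then tested were below 0. With limma-voom the median was -0.02, with 15 of 28 below 0. With the choroid plexus covariate it was -0.57, with 23 of 28 below 0, and without EYFP 3 it was -0.48. Without EYFP 1, 11 members changed sign, and Grin1, Grin2b and Slc17a6 no longer passed the filter. A p that misses the threshold does not show that the groups were alike, and for Camk2a, Slc17a7, Nefl and Snap25 the SE exceeded 1 on the log2 scale.

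**Figure D4:**
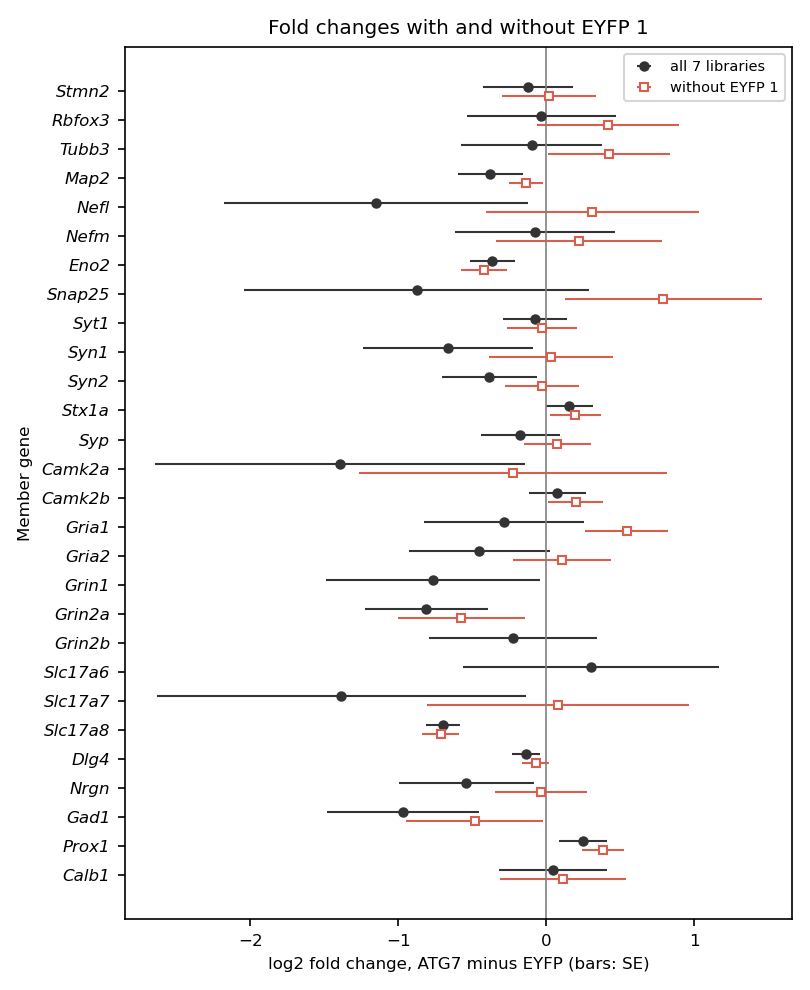
Log2 fold changes (ATG7 minus EYFP) of the 28 tested members with their SE as bars, from all 7 libraries (filled circles) and without EYFP 1 (open squares, missing where a gene no longer passed the filter). Slc17a8 and Eno2 stay at the same place, while Camk2a, Slc17a7, Nefl and Snap25 move toward or across 0.

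Other neuronal genes were examined in 9 lists of 80 genes. None of the 62 that passed the filter was called by edgeR or by limma-voom, while 13 reached an unadjusted p under 0.05. The 1 of the 13 that was higher in ATG7 was Thy1, at 1.62 CPM in EYFP and 3.61 CPM in ATG7 (log2 fold change 1.17, edgeR adjusted p = 0.227). Lower in ATG7 were 12, or 19.4% of the 62, beside 5.71% of all genes. Of these 12, Map1b, Sv2a, Snap91, Shank2, Erbb4, Amigo2, Dsp and Plk5 had EYFP 2 and EYFP 4 as their highest libraries. These libraries were also the highest in choroid plexus markers. In Celf4, Vamp2, Sv2b and Cck, the rest of the 12, EYFP 1 was highest. With the choroid plexus covariate edgeR again called none of the 62. The part of choroid plexus cells in these differences was not tested. DESeq2 called Dsp, Erbb4, Plk5 and Sv2a, or 6.45%, beside 3.05% of all genes. Plk5 and Sv2a were called by edgeR without EYFP 1 and also with no filter on low counts, and Erbb4 without EYFP 3. In 7 of the 62 the groups did not overlap (Map1b, Celf4, Vamp2, Sv2a, Sv2b, Dsp and Plk5), each with ATG7 below. That is 11.3%, beside 4.91% of all genes. Among 12 further pan-neuronal genes, Map1b, a microtubule-associated protein of axons, had the highest mean CPM and the smallest p, with 59.6 ± 4.89 CPM (SD, n = 4) over EYFP and 46.3 ± 7.04 CPM (SD, n = 3) over ATG7 (log2 fold change -0.37, edgeR adjusted p = 0.169). Among 21 further synaptic genes, Vamp2, the SNARE protein of vesicles, had the highest mean CPM (-0.29, edgeR adjusted p = 0.194). Sv2a, a glycoprotein of synaptic vesicles, came closest to the threshold, at 41.8, 44.3, 42.2 and 49.2 CPM in EYFP 1 to 4 and 28.9, 36.6 and 31.2 CPM in ATG7 1 to 3 (-0.46, edgeR adjusted p = 0.0590). Like Slc17a8, Sv2a was not highest in EYFP 1.

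Of 5 further genes known from granule cells, Dsp, a desmosome protein, had the highest mean CPM (45.5 CPM in EYFP and 31.0 in ATG7, log2 fold change -0.55, edgeR adjusted p = 0.163), and Plk5 had the smallest p (27.7 and 17.6 CPM, -0.65, edgeR adjusted p = 0.0692). For both genes EYFP 2 and EYFP 4 were the high libraries, which were also the highest in choroid plexus markers, and the part of such cells was not tested. C1ql2, another granule-cell gene, did not pass the filter. Among pyramidal-cell genes Wfs1 had the highest mean CPM (-0.06, edgeR adjusted p = 0.791) and Amigo2 had the smallest p (-0.30, edgeR adjusted p = 0.412). Among interneuron genes Erbb4, a neuregulin receptor, was first in both (-0.52, edgeR adjusted p = 0.169), and Sst and Vip, the interneuron peptides, did not pass the filter.

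Ion channel genes were led by Cacna1a, a presynaptic calcium channel (0.23, edgeR adjusted p = 0.611). In the list of immature neurons, Igfbpl1 had the highest mean CPM (0.23, edgeR adjusted p = 0.780) and Calb2 had the smallest p (0.96, edgeR adjusted p = 0.619). Activity-regulated genes were low, with Arc, an immediate-early gene of synapses, at 1.16 CPM in EYFP and 1.12 CPM in ATG7 (-0.03, edgeR adjusted p = 0.988) and Npas4 at 0.251 and 0.191 CPM (-0.39, edgeR adjusted p = 0.794). Of 4 noncoding RNAs of neuronal nuclei, Meg3 had the highest mean CPM (9.295 and 6.44 CPM, -0.53, edgeR adjusted p = 0.601) and Miat had the smallest p (0.59, edgeR adjusted p = 0.595). The median ratio of EYFP 1 to the other libraries was 1.75 over this nuclear list and 2.42 over the 30 members. A ratio under that of the members was not particular to nuclear RNA. Over the other further neuronal lists it ran from 1.04 (granule-cell) to 2.05 (channels), with 1.36 for synaptic and 1.68 for pan-neuronal genes. These differences were not tested.

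Some markers of other brain cells shared part of the pattern of EYFP 1. The mean log2 CPM of the astrocyte markers was highest in EYFP 1 (5.62). That of oligodendrocyte markers and of oligodendrocyte precursor markers was highest in EYFP 2 (4.20 and 2.48, against 4.05 and 2.25 in EYFP 1). The median ratio of EYFP 1 to the other libraries was 1.37 over 10 astrocyte markers, 1.43 over 10 oligodendrocyte markers, 1.03 over 10 microglial markers and 0.928 over 10 choroid plexus markers. It was 1.28 over 5 markers of oligodendrocyte precursors, 1.08 over 11 of vessels and 0.899 over 5 of ependymal cells. Summed astrocyte markers ranged from 417.3 to 809.9 CPM in EYFP and from 491.7 to 599.0 CPM in ATG7, and oligodendrocyte markers from 211.1 to 556.7 CPM and from 239.7 to 388.5 CPM. Mbp, a myelin protein whose mRNA is carried into oligodendrocyte processes, stood at 266.8, 227.0, 67.2 and 88.3 CPM in EYFP 1 to 4 and 76.4, 164.4 and 91.2 CPM in ATG7 1 to 3. Its 3 highest libraries, EYFP 1, EYFP 2 and ATG7 2, were those of Camk2a and Slc17a7. None of the 61 markers of other cells and of microglia was called by edgeR, DESeq2 or limma-voom, and 6 had an unadjusted p under 0.05 by edgeR. The vessel marker Kdr was higher in ATG7. Lower were the astrocyte marker Aldh1l1, the choroid plexus markers Otx2, Prlr and Aqp1 and the ependymal marker Dynlrb2. Of all genes tested, 5.71% were lower at that level.

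The genes outside the module with the most similar course over the 7 libraries were ranked by Pearson's r with the mean log2 CPM of the members, among 665 genes with a mean of at least 1 CPM and an SD of at least 0.5. Among the first 10 were Cxcl14, Kif5c, Panx2, Adcy1, Ppfia3, Dnm1, Slc6a11, Cplx1 and Camk2n2, with r from 0.98 down to 0.94. These values describe 7 libraries in which EYFP 1 sets much of the range, and without EYFP 1 they ran from 0.77 to 0.96. Kif5c, a kinesin motor of neurons, was at 32.8, 16.5, 6.652 and 9.60 CPM in EYFP 1 to 4 and 11.02, 15.6 and 8.71 CPM in ATG7 1 to 3. Adcy1, a calcium-stimulated adenylyl cyclase, was at 15.95, 4.40, 1.24 and 1.64 CPM in EYFP and 1.77, 5.08 and 1.89 CPM in ATG7. Slc6a11 encodes a GABA transporter known from astrocytes. Each of these named genes was highest in EYFP 1 and none passed the test between the groups, with adjusted p of 0.583 or more.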

How the data were processed

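RNA was sequenced from CD11b-enriched cells of 4 EYFP and 3 ATG7 libraries, made with a VAHTS mRNA kit per the labels' protocols. The authors deposited raw counts per gene, 1 column per library, and the number of unmatched columns was 0. The submitters' processing notes name fastp 0.20.1, HISAT2 2.0.5, featureCounts and the builds mm10 and GRCm38. The annotation, the strand setting and the handling of shared reads are not given in the sources used here. In GENCODE M21 (GRCm38), which gave symbols for 55141 of 55401 identifiers, exons of 10 members overlap a gene on the opposite strand (Prox1 with Prox1os, Syn1 with Araf, Nefl with Nefm among them), so their reads may be shared.

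Counts were fitted with edgeR 4.0.16 in R 4.3.3 (TMM factors, filterByExpr, robust quasi-likelihood test, all 7 libraries, no covariate, Benjamini-Hochberg adjustment over 19199 genes). SE is the absolute log2 fold change over the square root of F. CPM are counts scaled to the library total and by TMM, with a prior count of 2 where logged. Ratios and mean levels are descriptions. The fit was tested on simulated data. Alternatives were 3 scalings, 2 filters, DESeq2 1.42.0, limma 3.58.1 (voom with quality weights), the replicate number as a block, a prior count of 0.5, the members that pass the filter alone, and leaving out each library. No pair of libraries was within sampling noise (chi-square per degree of freedom of 19.2 or more). All 30 members are accounted for. Of each further neuronal list the gene with the highest mean CPM and the one with the smallest p are named, of marker lists the highest, and other genes were picked after their values were seen. The members and lists were chosen with earlier results of these data known. Transgene sequences were not analysed here, and 1 gene of similar course is not reported here.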

Additional observations from a re-analysis of the deposited data

Results flagged for a closer look

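Within the 4 EYFP libraries, 68 results were examined for a highest or lowest library far from the rest (Dixon's test), and 8 passed. Chance alone gives about 3.40 among 68. For 2 of the 8 the choice of gene or the zeros fixed the outcome. Slc32a1 was at 0.109 CPM in EYFP 1, from 4 counts, and the other 3 had none, so that any count would pass. Ppfia3, a synaptic liprin, was at 5.90 CPM in EYFP 1 against 2.55, and it had been ranked by its likeness to the members, whose range EYFP 1 sets. Of the other 6, EYFP 1 was the high library in 2: Gria1 at 4.04 CPM against 1.09 for the next EYFP library, and Slc17a6 at 1.09 CPM against 0.147. In ATG7 1 these 2 genes were at 1.60 and 0.824 CPM. Slc17a6 passed the filter on low counts only with EYFP 1 included. The members were chosen with results known, so the 6 cannot be read against the chance number. EYFP 2 was the low library for Calb1, at 1.61 CPM against 5.35 for the next, and for the mean log2 CPM of the granule-cell genes, which includes Calb1, at 2.22 against 3.41. Syt1 was lowest in EYFP 3, at 2.64 CPM against 3.95. Map1b was highest in EYFP 4, at 67.0 CPM against 57.8. Camk2a and Slc17a7 are not among them, because EYFP 2 lay between EYFP 1 and the other 2 libraries.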

How the results depend on the processing

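The number of genes called was 145 and ran from 28 to 277 over the fits without 1 library. It was 297 with no filter and 585 with DESeq2, and it was 14 with the choroid plexus covariate, an alternative chosen after seeing the data. The number of members called was 0 to 1 over the fits without 1 library and 0 with the covariate. Libraries with the same replicate number had low correlations of their deviations from the group means (-0.0609, -0.182 and 0.0664). These cannot decide whether the libraries were paired. With the replicate block 0 genes and 0 members were called. Slc17a8 then had a log2 fold change of -0.61 (edgeR adjusted p = 0.269) and Nefm was at 0.15.

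Log2 fold changes that changed sign when 1 library was left out ran from -0.25 to 0.18 for Calb1, -0.090 to 0.20 for Camk2b, -0.55 to 0.54 for Gria1, -0.71 to 0.11 for Gria2, -1.91 to 0.31 for Nefl, -0.38 to 0.26 for Nefm, -0.29 to 0.42 for Rbfox3, -0.45 to 0.74 for Slc17a6, -2.22 to 0.078 for Slc17a7, -1.29 to 0.79 for Snap25, -0.35 to 0.023 for Stmn2, -1.15 to 0.029 for Syn1, -0.35 to 0.076 for Syp, -0.22 to 0.10 for Syt1 and -0.36 to 0.42 for Tubb3. With limma-voom the sign changed for Stmn2 (0.043), Rbfox3 (0.37), Tubb3 (0.24), Snap25 (0.89), Gria1 (0.16), Grin1 (0.28), Grin2b (0.18) and Slc17a7 (0.048), and with the covariate for Syt1 (0.14) and Calb1 (-0.37). The cause was not tested. The other scalings (median of all genes -0.024 to 0.0031 over all settings) changed the sign of no member. Depth limits Gad2 and Slc32a1, at 10 counts or fewer, and members under 1 CPM.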
